A study of Mus musculus with 16 samples.

Results

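The 10 genes described here encode the kinases and phosphatases that set the activity of the pyruvate dehydrogenase complex, and subunits of the complex itself. They were chosen by symbol from the 20295 genes of the count table, and all 10 were found: the kinases Pdk1, Pdk2, Pdk3 and Pdk4, the phosphatases Pdp1 and Pdp2, and the subunits Pdha1, Pdhb, Dlat and Pdhx. All 10 passed the filter on low counts that left 12786 genes for testing.

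The pyruvate dehydrogenase complex of mitochondria turns pyruvate, the end product of glycolysis, into acetyl-CoA for the tricarboxylic acid (TCA) cycle and for fatty acid synthesis. The kinases phosphorylate its E1 alpha subunit and switch the complex off, and the phosphatases remove the phosphate and switch it on again. PDK4 is known for its induction when fatty acids become the main fuel, as in fasting, and in brown fat the balance between glucose and fatty acid oxidation depends in part on this complex.

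RNA-seq was done on mouse brown adipocytes, at day 7 of differentiation in culture from a brown preadipocyte line that the SV40 large T antigen had made immortal. The question was how the release of fatty acids by lipolysis, and the steps that follow it, bear on gene expression. SR-3420 is a ligand of ABHD5 that starts lipolysis without an adrenergic signal. Triacsin C inhibits acyl-CoA synthetases, which activate fatty acids, and etomoxir inhibits CPT1, which takes them into mitochondria. The 6 groups, all of the same cells, were vehicle (n = 2, replicates 2 and 3), SR-3420 alone (n = 2, replicates 1 and 3), triacsin C (n = 3), triacsin C with SR-3420 (n = 3), etomoxir (n = 3) and etomoxir with SR-3420 (n = 3). Pretreatment lasted 1 h, with triacsin C at 5 µM or etomoxir at 50 µM, and stimulation 3 h, with SR-3420 at 10 µM by the sample labels. Figure legends of the paper give a higher dose of SR-3420, and the analysis here holds no replicate 1 of vehicle and no replicate 2 of SR-3420 alone. A line immortalized by a viral antigen differs from brown fat in an animal, and its cells share 1 origin.

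Libraries summed to 9452861 counts at the lowest and 25670624 at the highest (median 13602886). At this depth the members had from 199 counts, for Pdk3 in SR-3420 alone, to 10959 counts, for Pdha1 in triacsin C. Over all genes, replicates of a group differed by more than the noise of counting, with a chi-square per degree of freedom of 4.37 to 156 over 14 pairs. This need not hold for each member, as Pdp2 in triacsin C was at 107, 105 and 104 CPM. A single axis held 66.5% of the variance of log2 CPM, the usual library-scaled count within groups, and replicate 3 had the highest score on it in each of the 6 groups. In triacsin C it was replicate 2 that stood apart, with scores of 8.04, -21.9 and 13.8 for replicates 1, 2 and 3. The members followed this axis to unequal extents, with a Pearson correlation over the 16 samples of 0.948 for Pdk3, 0.897 for Dlat, 0.893 for Pdp1, 0.849 for Pdhb and -0.778 for Pdk2, and of 0.489 for Pdk4 and 0.472 for Pdha1. Fits without 1 library were run for the members only, and calls of genes outside the 10 were not tested this way.

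Of the 10 markers of brown adipocytes 9 passed the filter on low counts, at levels far apart. Mean CPM was 5831 for Fabp4, 2065 for Adipoq, 1571 for Cebpa, 1203 for Plin1 and 187 for Pparg. It was only 21.9 for Prdm16, 18.7 for Cidea and 12.1 for Elovl3, and lower still for Ucp1 and Dio2. The summed level thus says little about these last genes, or about brown as against other adipocyte identity. Of 10 such markers the summed level was 14460 and 13120 CPM in vehicle, 10750 and 9701 in SR-3420 alone, and 14510, 15660 and 15030 in triacsin C. It was 5847, 5821 and 6162 CPM in triacsin C with SR-3420, 13850, 12910 and 14040 in etomoxir, and 7787, 5502 and 9446 in etomoxir with SR-3420. The sum was lower in every sample with SR-3420 than in any sample without it, but sums follow the most abundant genes, led by Fabp4, a fatty acid carrier. The median log2 fold change of the 9 markers tested was only -0.07 with SR-3420 alone, beside 0.00 for all genes, and -0.77 after triacsin C and -0.46 after etomoxir. With SR-3420 alone Cidea (0.76), Elovl3 (0.73) and Ucp1 (0.84) were above 0, none of them called. Dio2, the deiodinase that makes active thyroid hormone, was at 0 counts in 12 samples and reached at most 2. Ucp1, the uncoupling protein that defines brown fat, was near the floor with 5 to 57 counts and a mean of 2.16 CPM. Of the 9 brown adipocyte markers tested, 1 fell with SR-3420 alone, 1 rose and 5 fell with SR-3420 after triacsin C, and 4 fell after etomoxir. Among all genes, 2.79%, 19.7% and 12.8% fell in these comparisons, and 17.3% rose after triacsin C. In the mean response over the 3 arms 5 fell (23.4% of all genes) and 1 rose (22.8%), Ucp1 (0.90, SE 0.29, adjusted p = 0.0229). The 6 markers of preadipocytes or fibroblasts, led by Col1a1, summed to 1604 and 1319 CPM in vehicle, 3715 and 2560 in SR-3420 alone, and 2246, 2034 and 1672 in triacsin C. They summed to 4181, 3455 and 2656 CPM in triacsin C with SR-3420, 1986, 1393 and 869.6 in etomoxir, and 4358, 3078 and 2003 in etomoxir with SR-3420. These sums were higher with SR-3420 than without it within each arm. After triacsin C 3 of the 6 markers rose (17.3% of all genes), and after etomoxir 3 (12.5%). The median log2 fold change of these 6 was 0.74 with SR-3420 alone, where edgeR called 0 of them (4.75% of all genes higher, 2.79% lower). There 3 had an unadjusted p under 0.05 (21.8% of all genes), and DESeq2 called 2 (12.5%). In the mean response 6 of the 6 rose, where 22.8% of all genes did, with a median of 0.82. Bulk RNA cannot separate fewer cells of a type from less RNA per cell, and the part of these shifts in the results on the members was not tested.

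Markers of other cells were low. The 5 skeletal muscle markers, led by Acta1, summed to 2.65 to 12.9 CPM, with Ckm at 0 counts in 6 samples and Myh1 in 7. Myod1, a factor of muscle cells, rose in the mean response (log2 fold change 1.06, SE 0.25, adjusted p = 0.00404). The 5 macrophage markers, led by Cd68, summed to 4.33 to 18.4 CPM, with Emr1 at 0 counts in 7 samples. The 3 endothelial markers, led by Kdr, summed to 0.860 to 3.29 CPM, with Cdh5 at 0 counts in 3 samples. Cd68, a lysosomal glycoprotein, rose with triacsin C alone by a log2 fold change of 1.92 (SE 0.27, adjusted p = 0.000366). It fell with SR-3420 after triacsin C by 1.29 (SE 0.22, adjusted p = 0.000651), a response that differed from that without inhibitor by -1.98 (SE 0.36, adjusted p = 0.0139). Csf1r, the other macrophage marker tested, was not called after triacsin C and went the other way, from a mean of 1.19 CPM to 1.70 CPM with SR-3420. Kdr, a receptor of VEGF, rose with SR-3420 after triacsin C (log2 fold change 0.96, SE 0.31, adjusted p = 0.0246) and after etomoxir (1.29, SE 0.30, adjusted p = 0.00681).

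The response of the members to SR-3420 had a common shape, except for Pdk3. By group means Pdk4 and Pdp1 were higher in every arm, and Pdk1, Pdk2, Pdp2 and the 4 subunits were lower, not all of them called. The Pdk3 mean was slightly lower with SR-3420 alone and higher after either inhibitor. A call means an adjusted p under 0.05, by the quasi-likelihood test of edgeR and the Benjamini-Hochberg method over 12786 genes. The further calls gained in an alternative fit, with a block for the replicate number, are listed in the last section. With SR-3420 alone, 1 member rose, Pdk4, where 4.75% of all genes did, and 0 fell, where 2.79% of all genes did; 5 members had an unadjusted p under 0.05 by edgeR (21.8% of all genes), and DESeq2 called 3 (12.5%). After triacsin C, 2 members rose (17.3% of all genes) and 7 fell (19.7% of all genes), and the 9 calls became 8 without triacsin C replicate 1 or triacsin C with SR-3420 replicate 3, and 7 without any other library of these groups. After etomoxir, 1 member rose (12.5% of all genes) and 5 fell (12.8% of all genes), and a fit of only the compared groups called 4 members in place of 6. These 6 became 5 without etomoxir with SR-3420 replicate 1 or 2, 7 without etomoxir replicate 1 and 8 without etomoxir with SR-3420 replicate 3. Averaged over the 3 arms, 2 members rose (22.8% of all genes) and 7 fell (23.4% of all genes), with 7 to 9 called without 1 library, and 7 without triacsin C replicate 3 or etomoxir with SR-3420 replicate 2. The test of any difference among the 6 groups called 7 members, all but Pdk1, Pdk3 and Pdp1, where 42.7% of all genes were called. It called 6 without triacsin C with SR-3420 replicate 1 or replicate 2, and 8 without etomoxir with SR-3420 replicate 3. The median log2 fold change of the 10 members was -0.37 with SR-3420 alone, -0.78 after triacsin C and -0.56 after etomoxir, beside 0.00, 0.02 and 0.01 for all genes tested. The arms share the same SR-3420 dose and times, and vehicle and SR-3420 alone had 2 samples each against 3 in the other groups. Groups this small can lie apart without overlap by chance. The share of all genes that did so was not counted, so a lack of overlap below is a description only.

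**Figure D1:**
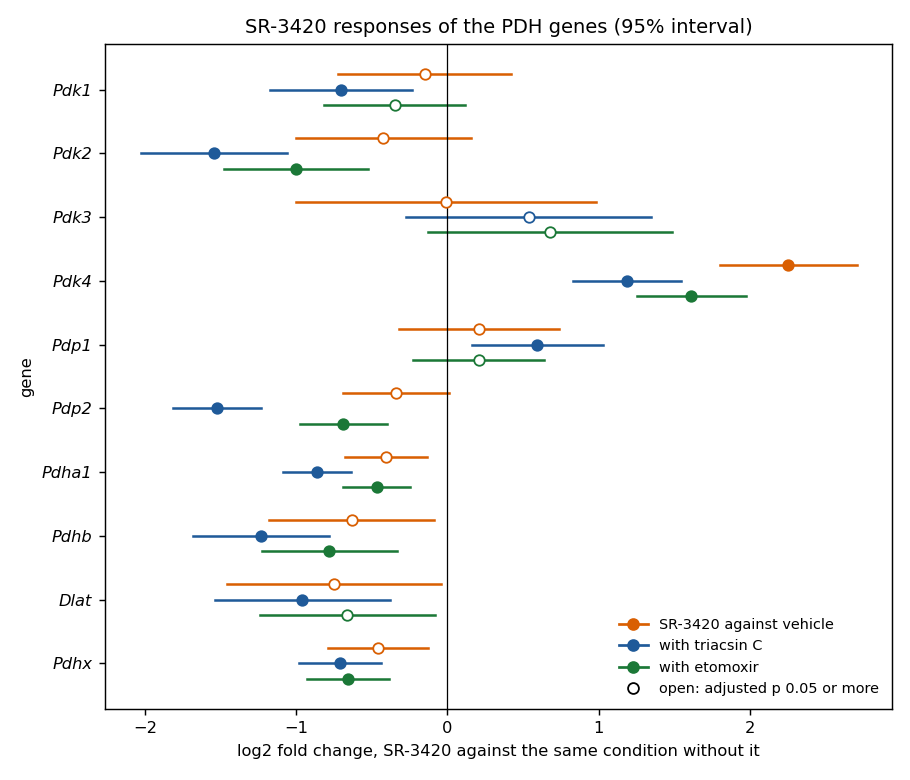
Log2 fold change of the 10 members for SR-3420 against the same condition without it, in each of the 3 arms, with 95% intervals as bars, filled points for calls at an adjusted p under 0.05 and open points for the others. Pdk4 lies above 0 in every arm, between 1.19 and 2.25, and Pdk2 and Pdp2 reach -1.54 and -1.52 after triacsin C.

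Levels between genes were compared as CPM per kb of counted length, as the mean over the 16 samples, which pools groups with and without SR-3420. Pdha1, the E1 alpha subunit that the kinases phosphorylate, was highest at 261 CPM per kb. Pdk4 followed at 95.3, Pdhb, the E1 beta subunit, at 85.3, and Dlat, the E2 subunit that makes acetyl-CoA, at 57.3 CPM per kb. Pdk2 was at 35.6, Pdhx, which anchors the E3 enzyme, at 23.5, and Pdk1 at 21.4 CPM per kb. The lowest were Pdp2 at 15.3, Pdk3 at 12.4 and Pdp1 at 6.89 CPM per kb. In triacsin C, though, Pdp2 was at 30.1 CPM per kb, above Pdhx at 26.3 and Pdk1 at 25.4. The place of Pdk4 also depended on the group: in vehicle it was at 29.4 CPM per kb, below Pdhb at 102, Dlat at 74.3 and Pdk2 at 52.4, and close to Pdhx at 29.5. With SR-3420 it was at 140.5 CPM per kb alone, 150.1 after triacsin C and 134.9 after etomoxir. The ranges over samples of neighbours in this order overlapped for all pairs except Pdha1 and Pdk4, since the lowest Pdha1 value was 189 CPM per kb and the highest Pdk4 value 168. By mean CPM, Pdk4 stood at the percentile 96.6 of the genes tested and Pdha1 at 98.5, while Pdk3 stood at 43.6 and Pdp1 at 47.3.

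The promoters of Pdk4, Pdk2 and Pdp2 are shown because these members had the largest log2 fold changes in each direction with SR-3420 after triacsin C, Pdk4 upwards and Pdk2 and Pdp2 downwards. The RefSeq promoter table of build GRCm38.p6 matched 9 of the 10 members with 11 promoters, and Pdp1 is named only. Pdk1 and Pdk2 have 2 each, and the ones shown for Pdk2 and Pdk4 lie at the start site of the count table. The start used for Pdp2 lies 4 bases downstream of its start in the count table, and its positions count from the start used. The 250 bases before the start were read, 5′ to 3′ on the gene's strand, and were placed on mm9, the build of the counts, by their single exact match.
Pdk4: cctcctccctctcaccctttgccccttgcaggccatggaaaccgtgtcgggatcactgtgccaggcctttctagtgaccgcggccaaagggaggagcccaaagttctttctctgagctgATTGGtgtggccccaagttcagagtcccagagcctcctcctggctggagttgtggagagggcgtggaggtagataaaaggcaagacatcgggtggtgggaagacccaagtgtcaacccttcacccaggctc
Pdk2: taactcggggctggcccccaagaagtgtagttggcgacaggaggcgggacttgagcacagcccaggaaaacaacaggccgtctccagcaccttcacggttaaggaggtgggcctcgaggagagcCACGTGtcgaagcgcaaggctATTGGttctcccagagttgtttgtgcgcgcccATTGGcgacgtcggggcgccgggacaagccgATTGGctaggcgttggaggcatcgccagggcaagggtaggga
Pdp2: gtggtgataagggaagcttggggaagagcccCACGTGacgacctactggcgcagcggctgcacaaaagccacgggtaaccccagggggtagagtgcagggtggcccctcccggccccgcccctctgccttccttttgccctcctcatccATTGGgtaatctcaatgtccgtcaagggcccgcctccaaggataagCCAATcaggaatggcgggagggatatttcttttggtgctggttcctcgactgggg
They lie at chr6:5446279-5446528 (minus strand) for Pdk4, at chr11:94902686-94902935 (minus strand) for Pdk2 and at chr8:107115122-107115371 (plus strand) for Pdp2. Capitals mark CACGTG, the E-box, and CCAAT, searched on both strands, so that ATTGG is CCAAT read from the other strand. Positions count from the start of transcription, with -1 as the last base before it, and give the first base of the match as printed. Pdk2 has CACGTG at -126 and CCAAT on the other strand at -105, -73 and -42. The second Pdk2 promoter, 496 bases away, has neither. Pdp2 has CACGTG at -219, CCAAT on the other strand at -101 and CCAAT at -55. Pdk4 has no CACGTG in this window and has CCAAT on the other strand at -131. CACGTG was in 2 of the 11 member promoters and in 6.02% of the 32851 promoters of the table. CCAAT was in 5 of the 11 and in 33.8% of all. ACGTG, a form of the core letters of HIF sites that CACGTG contains on both strands, was in 4 of the 11 and in 16.6% of all. The other form, GCGTG, was not searched, and the Pdk4 sequence above holds it. The nuclear receptor repeat AGGTCANAGGTCA (0.0335% of all promoters), TCAAGGTCA, the element of estrogen-related receptors (0.387%), and GTAAACA, a forkhead site (3.17%), were in 0 of the 11. A match describes letters and shows no binding, and no match says only that these letters are not in this window.

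Pdk4 (NM_013743) lies at chr6:5433351-5446278 of mm9 on the minus strand, with 11 exons in its longest coding transcript. Its level was 102 CPM in each vehicle sample, 544 and 426 in SR-3420 alone, and 236.5, 219 and 227 in triacsin C. It was 501, 484 and 570 CPM in triacsin C with SR-3420, 127, 155 and 175 in etomoxir, and 429, 387 and 582 in etomoxir with SR-3420. Every sample with SR-3420 was above every sample without it, and the 3 groups with SR-3420 overlapped each other. Pdk4 rose with SR-3420 alone by a log2 fold change of 2.25 (SE 0.21, adjusted p = 4.28e-05), a 4.77-fold change seen in both samples. It rose 2.28-fold after triacsin C (log2 fold change 1.19, SE 0.17, adjusted p = 0.000124) and 3.06-fold after etomoxir (1.61, SE 0.17, adjusted p = 3.05e-05), in 3 of 3 samples each. The groups without SR-3420 were ordered vehicle, etomoxir, triacsin C, with no overlap between neighbours, while the groups with SR-3420 did not differ beyond their spread. Adding triacsin C to SR-3420 gave a log2 difference of 0.10 for Pdk4 (SE 0.18, adjusted p = 0.791), and adding etomoxir gave -0.06 (SE 0.18, adjusted p = 0.875). Neither passed the test, and the 95% intervals were -0.30 to 0.49 and -0.45 to 0.33.

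Pdk2 (NM_133667), the kinase isoform found in most tissues, lies at chr11:94887572-94902685 on the minus strand, with 11 exons. Its level was 141 and 96.4 CPM in vehicle, 101 and 76.1 in SR-3420 alone, and 97.2, 125 and 105 in triacsin C. It was 36.4, 44.4 and 31.3 CPM in triacsin C with SR-3420, 113, 99.6 and 80.0 in etomoxir, and 60.4, 36.0 and 49.4 in etomoxir with SR-3420. The 6 samples with an inhibitor and SR-3420 were the lowest of all 16, and the vehicle and SR-3420 samples overlapped. Pdk2 fell after triacsin C by 1.54 on the log2 scale (SE 0.22, adjusted p = 0.00017), 2.92-fold lower in 3 of 3 samples. It fell after etomoxir by 1.00 on the log2 scale (SE 0.22, adjusted p = 0.00502), 2.00-fold lower in 3 of 3 samples. With SR-3420 alone its log2 fold change was -0.42 (SE 0.27, adjusted p = 0.394), and it ranged from -0.67 without vehicle replicate 3 to -0.12 without vehicle replicate 2. The difference between the responses after triacsin C and without inhibitor was -1.12 (SE 0.35, adjusted p = 0.113), and after etomoxir -0.58 (SE 0.35, adjusted p = 0.988), so the main fit did not show the responses to differ. With a block for the replicate number, edgeR called the triacsin C difference (-1.12, adjusted p = 0.0246).

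Pdk1 (NM_172665), a kinase known as a target of HIF-1, spans chr2:71711281-71741915 on the plus strand, with 11 exons. Its level was 132 and 142 CPM in vehicle, 107 and 140.2 in SR-3420 alone, and 111, 138 and 145 in triacsin C. It was 67.9, 81.6 and 93.1 CPM in triacsin C with SR-3420, 98.2, 117 and 131 in etomoxir, and 75.2, 69.9 and 126 in etomoxir with SR-3420. Of the 3 SR-3420 groups only that with triacsin C did not overlap its control. Etomoxir alone lay below vehicle, and triacsin C with SR-3420 below SR-3420 alone, both without overlap. Pdk1 fell after triacsin C by 0.70 on the log2 scale (SE 0.22, adjusted p = 0.0224), in 3 of 3 samples. This call was lost without triacsin C replicate 2 (-0.67, adjusted p = 0.0661) or replicate 3 (-0.62, adjusted p = 0.0756), and without triacsin C with SR-3420 replicate 1 (-0.59, adjusted p = 0.0852) or replicate 2 (-0.66, adjusted p = 0.0827). It was also lost with no filter on low counts (-0.64, adjusted p = 0.0507). After etomoxir the log2 fold change was -0.35 (SE 0.22, adjusted p = 0.269), and without etomoxir with SR-3420 replicate 3, the high sample, it was -0.67 (adjusted p = 0.0194). Without etomoxir with SR-3420 replicate 2 it was -0.19 (adjusted p = 0.643), and without replicate 1 of that group -0.23 (adjusted p = 0.508). The mean response of -0.40 (SE 0.14, adjusted p = 0.0274) was not called without vehicle replicate 3 (-0.38, adjusted p = 0.0649), SR-3420 replicate 1 (-0.34, adjusted p = 0.0918) or triacsin C replicate 3 (-0.38, adjusted p = 0.0528). Nor was it called without triacsin C with SR-3420 replicate 1 (-0.36, adjusted p = 0.0528) or etomoxir with SR-3420 replicate 2 (-0.35, adjusted p = 0.0517).

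Pdk3 (NM_145630), a kinase isoform of narrower expression, spans chrX:91009955-91077434 on the minus strand, with 12 exons. It ranged from 11.7 CPM in SR-3420 alone to 42.8 CPM in triacsin C with SR-3420, and every SR-3420 group overlapped its control. No response of Pdk3 passed the test in the main fit, with log2 fold changes of -0.01 (SE 0.46) for SR-3420 alone, 0.54 (SE 0.37) after triacsin C and 0.68 (SE 0.37) after etomoxir. With a block for the replicate number, edgeR called Pdk3 after triacsin C (0.49, adjusted p = 0.0483), after etomoxir (0.66, adjusted p = 0.0135) and in the mean response (0.41, adjusted p = 0.0102). Without triacsin C with SR-3420 replicate 3 the triacsin C value was 0.25 (adjusted p = 0.68), and without 1 library the etomoxir value ranged from 0.46 to 0.94. Replicate 3 was the highest sample for Pdk3 in each of the 6 groups.

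Pdp2 (NM_001024606), a phosphatase that reactivates the complex, lies at chr8:107115368-107120749 on the plus strand, with 2 exons. Its level was 63.2 and 54.9 CPM in vehicle, 54.4 and 38.9 in SR-3420 alone, and 107, 105 and 104 in triacsin C. It was 38.3, 35.2 and 36.5 CPM in triacsin C with SR-3420, 48.5, 46.5 and 40.8 in etomoxir, and 30.0, 25.6 and 28.7 in etomoxir with SR-3420. The 3 triacsin C samples were the highest of the 16 and the 3 samples of etomoxir with SR-3420 the lowest, and each SR-3420 group lay below its control without overlap. Pdp2 fell after triacsin C by 1.52 on the log2 scale (SE 0.14, adjusted p = 6.69e-06), 2.87-fold lower in 3 of 3 samples. It fell after etomoxir by 0.69 on the log2 scale (SE 0.13, adjusted p = 0.00235), 1.61-fold lower in 3 of 3 samples. With SR-3420 alone the log2 fold change was -0.34 (SE 0.16, adjusted p = 0.241), and it ranged from -0.60 without SR-3420 replicate 1 to -0.12 without SR-3420 replicate 3.

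Pdp1 (NM_001098230), the calcium-sensitive phosphatase, lies at chr4:11885332-11893597 on the minus strand, with 2 exons. It ranged from 21.7 CPM in vehicle to 48.0 CPM in triacsin C with SR-3420. Pdp1 rose after triacsin C by a log2 fold change of 0.60 (SE 0.20, adjusted p = 0.0332), from 26.6, 23.5 and 24.3 CPM to 34.3, 30.1 and 48.0 CPM, with no overlap. This call was lost without triacsin C replicate 1 (0.65, adjusted p = 0.0557), replicate 2 (0.56, adjusted p = 0.102) or replicate 3 (0.58, adjusted p = 0.0857), and without triacsin C with SR-3420 replicate 3 (0.38, adjusted p = 0.168). It was also lost when all 6 libraries numbered 3 were left out (0.39, adjusted p = 0.15). The mean response of 0.34 (SE 0.13, adjusted p = 0.0412) was not called in 10 of the 16 fits without 1 library, given with the adjusted p after each value. These were without vehicle replicate 2 (0.29, 0.124), SR-3420 replicate 3 (0.26, 0.139), or triacsin C replicate 1 (0.35, 0.051), 2 (0.32, 0.071) or 3 (0.33, 0.0674). The others were without triacsin C with SR-3420 replicate 3 (0.26, 0.0762), etomoxir replicate 1 (0.31, 0.0721) or 2 (0.33, 0.0704), or etomoxir with SR-3420 replicate 2 (0.31, 0.0761) or 3 (0.31, 0.0691). It was also not called with no filter on low counts (0.35, 0.0608) or without the 6 libraries numbered 3 (0.27, 0.121).

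**Figure D2:**
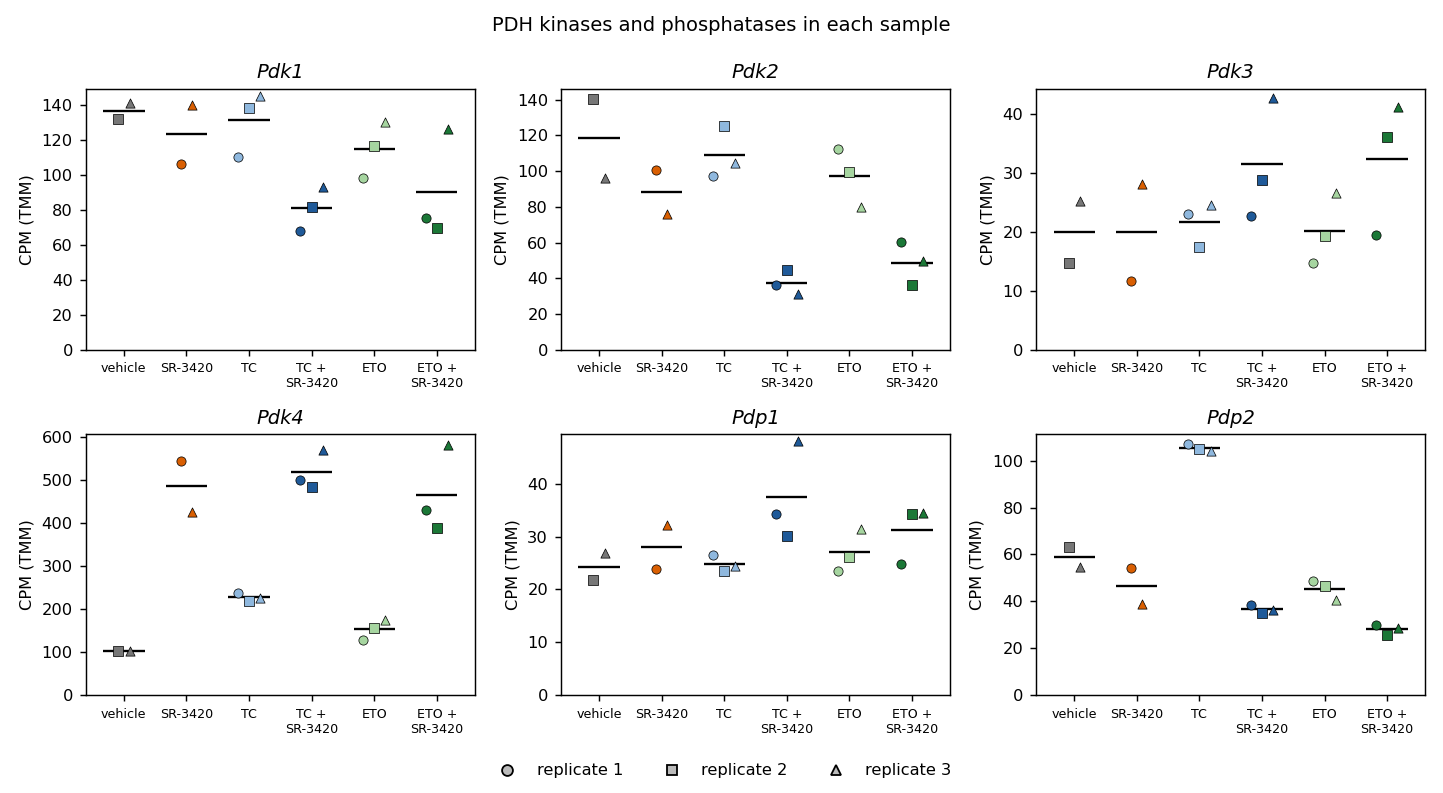
Level in CPM (TMM-normalized; TC, triacsin C; ETO, etomoxir) of the 4 kinases and 2 phosphatases in each of the 16 samples, by group, with circles, squares and triangles for replicates 1, 2 and 3 and a line at each group mean. Pdk4 runs from 102 CPM in vehicle to 582 CPM in etomoxir with SR-3420, and Pdp2 is highest in triacsin C, at 104 to 107 CPM.

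The inhibitors alone asked whether blocked use of fatty acids moved the members without SR-3420. With triacsin C alone 2 members rose, Pdk4 and Pdp2, where 4.77% of all genes did, and 0 fell by edgeR, where 6.94% did; 2 members had an unadjusted p under 0.05 (24.3% of all genes), and DESeq2 called 2 (15.9%). Pdk4 rose 2.24-fold (log2 fold change 1.16, SE 0.19, adjusted p = 0.00125) and Pdp2 1.78-fold (0.83, SE 0.15, adjusted p = 0.0025), each in 3 of 3 samples. A kinase and a phosphatase with opposite effects on the complex thus rose in the same samples. The Pdp2 call was lost without vehicle replicate 3 (0.74, adjusted p = 0.0501), which leaves 1 vehicle sample. With etomoxir alone edgeR called 0 members in either direction, where 0.0235% of all genes were called. There 2 members had an unadjusted p under 0.05 (2.21% of all genes), and DESeq2 called 0 (0.133%). These were Pdk4, at a log2 fold change of 0.58 (SE 0.19, unadjusted p = 0.00772, adjusted p = 1), and Pdp2, at -0.38 (SE 0.15, unadjusted p = 0.0212, adjusted p = 1), with no overlap with vehicle in either case.

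An inhibitor added to SR-3420 was compared with SR-3420 alone. Adding triacsin C to SR-3420, edgeR called 1 member lower, Pdk2, where 3.55% of all genes were, and 0 higher, where 1.02% were; 5 members had an unadjusted p under 0.05 (19.5% of all genes), and DESeq2 called 2 (9.62%). Pdk2 was lower by a log2 difference of -1.24 (SE 0.24, adjusted p = 0.0121), or 2.37-fold, in 3 of 3 samples. This call was lost without SR-3420 replicate 1 (-1.03, adjusted p = 0.189) and without triacsin C with SR-3420 replicate 3 (-1.13, adjusted p = 0.0584), and when the 6 libraries numbered 3 were left out (-1.32, adjusted p = 0.0719). It was also lost in a fit of only the compared groups (-1.24, adjusted p = 0.0661). Adding etomoxir to SR-3420, edgeR called 0 members in either direction, where 0.00782% of all genes were called. There 2 members had an unadjusted p under 0.05 (10% of all genes), and DESeq2 called 1, Pdp2 (0.704%). Pdk2 differed by -0.86 (SE 0.24, unadjusted p = 0.00331, adjusted p = 0.292) and Pdp2 by -0.73 (SE 0.15, unadjusted p = 0.000229, adjusted p = 0.154), and in both genes all 3 samples lay below both samples of SR-3420 alone.

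Whether an inhibitor altered the response to SR-3420 was tested as an interaction. After triacsin C, edgeR called 2 members with a difference below 0 from the log2 response without inhibitor, Pdk4 and Pdp2, where 1.27% of all genes were. It called 0 with a difference above 0, where 1.24% were. For 4 members the unadjusted p was under 0.05 (16.7% of all genes), and DESeq2 called 3 (6.51%). The rise of Pdk4 was smaller, by a log2 difference of -1.07 (SE 0.26, adjusted p = 0.0486). The log2 fold change of Pdp2, below 0 in both arms, was further from 0, by -1.18 (SE 0.21, adjusted p = 0.0122). For Pdk4 the levels differed before SR-3420, at 102 CPM in vehicle and 219 to 236.5 CPM in triacsin C, and overlapped after it. For Pdp2 the levels were 54.9 to 63.2 CPM in vehicle and 104 to 107 CPM in triacsin C before SR-3420, and 38.9 to 54.4 and 35.2 to 38.3 CPM after it. The Pdk4 call was lost in all 10 fits that dropped 1 library of the 4 groups, with adjusted p from 0.0541 without SR-3420 replicate 3 (-1.23) to 0.248 without SR-3420 replicate 1 (-0.88). The other adjusted p were 0.115 and 0.209 without vehicle replicates 2 and 3, 0.0905, 0.0971 and 0.101 without triacsin C replicates 1, 2 and 3, and 0.0949, 0.153 and 0.0689 without triacsin C with SR-3420 replicates 1, 2 and 3. It was also lost with DESeq2's size factors (-1.03, adjusted p = 0.0592), with no filter on low counts (-0.997, adjusted p = 0.118) and without the 6 libraries numbered 3 (-1.29, adjusted p = 0.156). The Pdp2 call was lost without vehicle replicate 3 (-1.085, adjusted p = 0.0893), SR-3420 replicate 1 (-0.92, adjusted p = 0.0723) or the 6 libraries numbered 3 (-1.29, adjusted p = 0.143). After etomoxir, edgeR called 0 members in either direction, where 0% of all genes were called; 1 member, Pdk4, had an unadjusted p under 0.05, as 2.4% of all genes did (log2 difference -0.64, SE 0.26, unadjusted p = 0.0272, adjusted p = 0.988), and DESeq2 called 0 (0.0704%).

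**Figure D3:**
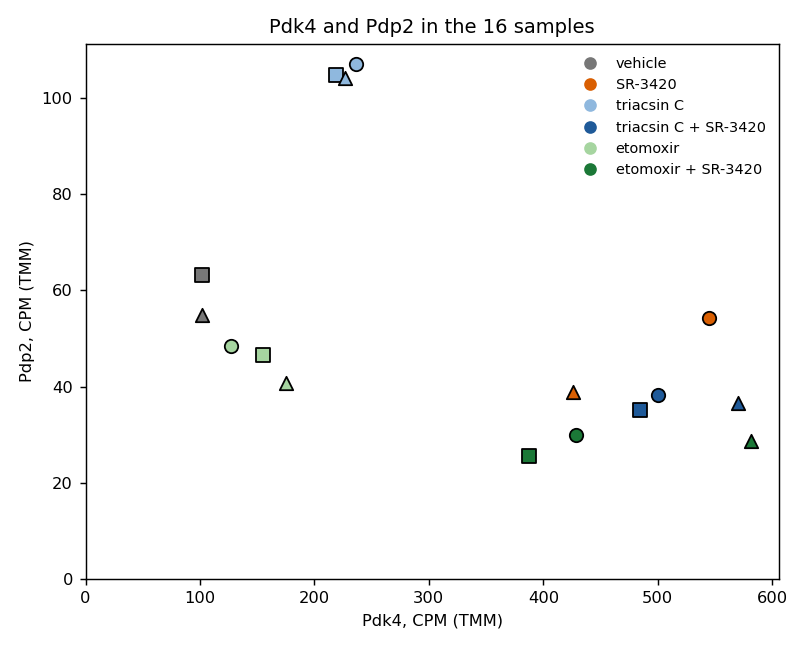
Pdk4 level against Pdp2 level, both in CPM, for the 16 samples, with colours for the groups and circles, squares and triangles for replicates 1, 2 and 3. The triacsin C samples stand alone at a Pdp2 level of 104 to 107 CPM, and the samples with SR-3420 have at least 387 CPM of Pdk4 and at most 54.4 CPM of Pdp2.

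The mixture of kinase transcripts was unlike that of the controls with SR-3420 in every arm, read as each gene's share of the 4 kinases per kb, a description with no test. Pdk4 held 24.96% ± 1.86 (SD, n = 2) of the kinase transcripts in vehicle and 65.6% ± 4.76 (SD, n = 2) in SR-3420 alone. It held 43.9% ± 3.23 (SD, n = 3) in triacsin C and 75.9% ± 2.18 (SD, n = 3) in triacsin C with SR-3420. In etomoxir it held 36.8% ± 4.05 (SD, n = 3), and 70.9% ± 0.675 (SD, n = 3) in etomoxir with SR-3420. Pdk4 was thus the most abundant kinase transcript per kb in every SR-3420 sample, but also in every triacsin C sample and in etomoxir replicates 2 and 3. Pdk2 was the most abundant in both vehicle samples and in etomoxir replicate 1. The ranking in vehicle depends on the division by length: without it, vehicle replicate 3 had 38.8% of Pdk1, 27.9% of Pdk4 and 26.4% of Pdk2, and vehicle replicate 2 had 36.1% of Pdk2 and 33.99% of Pdk1. The Pdk2 share was 44.0% ± 8.41 (SD, n = 2) in vehicle, 18.2% ± 1.75 (SD, n = 2) in SR-3420 alone and 8.44% ± 2.00 (SD, n = 3) in triacsin C with SR-3420. In the other groups it was 32.0% ± 3.35 (SD, n = 3) in triacsin C, 36.3% ± 7.84 (SD, n = 3) in etomoxir and 11.5% ± 3.26 (SD, n = 3) in etomoxir with SR-3420. The Pdk1 share was 22.4% in vehicle and 11.3% in SR-3420 alone as group means, and the Pdk3 share lay between 4.83% and 8.63% over the group means.

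**Figure D4:**
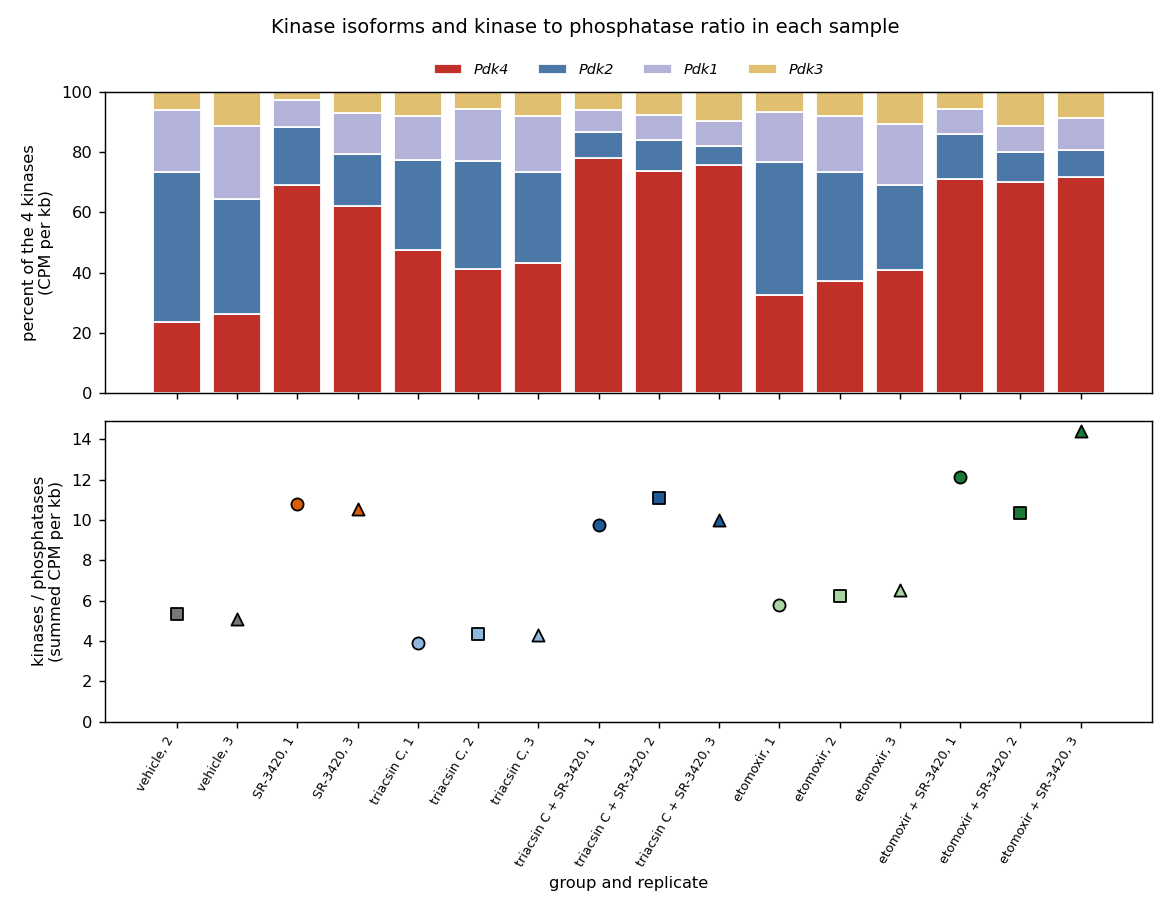
Share in percent of Pdk1, Pdk2, Pdk3 and Pdk4 among the 4 kinases per kb of counted length (stacked bars), and the ratio of summed kinases to summed phosphatases per kb (points), in each of the 16 samples. The Pdk4 share is 62.3% or more in the samples with SR-3420 and 47.5% or less in the others, and the ratio is at least 9.74 in the samples with SR-3420 and at most 6.52 in the others.

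Relative to the phosphatases, the kinases together were higher in all samples with SR-3420 than in the others, a description with no test. The ratio of summed kinases to summed phosphatases per kb was 5.36 and 5.08 in vehicle, 10.8 and 10.6 in SR-3420 alone, and 3.91, 4.34 and 4.29 in triacsin C. It was 9.74, 11.1 and 10.0 in triacsin C with SR-3420, 5.81, 6.23 and 6.52 in etomoxir, and 12.1, 10.4 and 14.4 in etomoxir with SR-3420. All 8 samples with SR-3420 exceeded all samples without it, and triacsin C alone was below vehicle. The summed kinases were 118 CPM per kb in vehicle and 213 in SR-3420 alone, 150.2 in triacsin C alone and 198 in its SR-3420 group, and 119.5 in etomoxir alone and 190.0 in its SR-3420 group. The summed phosphatases were 22.6 CPM per kb in vehicle and 19.96 in SR-3420 alone, 36.0 in triacsin C alone and 19.3 in its SR-3420 group, and 19.3 in etomoxir alone and 15.4 in its SR-3420 group. Pdp2 supplied 74.5% of the phosphatase transcripts per kb in vehicle, 83.7% in triacsin C, 54.7% in triacsin C with SR-3420 and 52.3% in etomoxir with SR-3420. Transcript ratios give no measure of protein or of the activity of the complex, which were not analysed here.

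Of the 4 subunits of the complex, 4 fell with SR-3420 after triacsin C, where 19.7% of all genes did, and 3 after etomoxir, all but Dlat, where 12.8% did. With SR-3420 alone edgeR called 0 of the 4, and DESeq2 called Pdha1 and Pdhx (adjusted p = 0.00151 and 0.0186), where it called 12.5% of all genes. With a block for the replicate number, edgeR called all 4, where it called 19.1% of all genes. Pdha1 (NM_008810, chrX:156560151-156576268, minus strand, 11 exons) was at 706 and 641 CPM in vehicle, 494 and 521 in SR-3420 alone, and 769, 749 and 749 in triacsin C. It was at 409.9, 410.3 and 428 CPM in triacsin C with SR-3420, 589.6, 608 and 619.6 in etomoxir, and 409, 411 and 495 in etomoxir with SR-3420. Each SR-3420 group lay below its control without overlap. Pdha1 fell after triacsin C by 0.86 on the log2 scale (SE 0.10, adjusted p = 4.56e-05) and after etomoxir by 0.47 (SE 0.10, adjusted p = 0.00509), in 3 of 3 samples each. The etomoxir call was lost in a fit of only the compared groups (-0.49, adjusted p = 0.0918). With SR-3420 alone its log2 fold change was -0.41 (SE 0.13, adjusted p = 0.0695), lower in 2 of 2 samples. Pdha1 overlaps Map3k15 on the other strand, a gene with 4 to 17 counts per sample, and whether the counting used the strand is not stated. The other 9 members overlap no gene of the table.

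Pdhb (NM_024221, chr14:8998505-9005506, minus strand, 10 exons) was at 143 and 159.8 CPM in vehicle, 77.2 and 118 in SR-3420 alone, and 189, 182 and 222 in triacsin C. It was at 73.4, 81.1 and 97.9 CPM in triacsin C with SR-3420, 127, 141 and 163 in etomoxir, and 68.3, 71.3 and 111 in etomoxir with SR-3420. All 8 samples with SR-3420 lay below all samples without it. Pdhb fell after triacsin C by 1.23 on the log2 scale (SE 0.21, adjusted p = 0.000548), 2.35-fold lower, and after etomoxir by 0.78 (SE 0.21, adjusted p = 0.0146). The etomoxir call was lost without etomoxir with SR-3420 replicate 1 (-0.65, adjusted p = 0.0526) or replicate 2 (-0.68, adjusted p = 0.0733), and in a fit of only the compared groups (-0.81, adjusted p = 0.0728). Dlat (NM_145614, chr9:50442738-50467885, minus strand, 14 exons) ranged from 113 CPM in triacsin C with SR-3420 to 375 CPM in etomoxir. It fell after triacsin C by 0.96 on the log2 scale (SE 0.27, adjusted p = 0.0131), in 3 of 3 samples, a call lost without triacsin C with SR-3420 replicate 1 (-0.81, adjusted p = 0.0557) or replicate 2 (-0.91, adjusted p = 0.0575). After etomoxir Dlat was at -0.66 (SE 0.27, adjusted p = 0.0875) with overlap, and it passed the test without etomoxir replicate 1 (-0.87, adjusted p = 0.0349) or etomoxir with SR-3420 replicate 3 (-0.99, adjusted p = 0.0145). It was nearer to 0 without etomoxir replicate 3 (-0.47, adjusted p = 0.239) or etomoxir with SR-3420 replicate 1 (-0.45, adjusted p = 0.24). Pdhx (NM_175094, chr2:102861213-102913670, minus strand, 11 exons) ranged from 35.5 to 80.6 CPM. It fell after triacsin C by 0.71 on the log2 scale (SE 0.13, adjusted p = 0.000739) and after etomoxir by 0.66 (SE 0.12, adjusted p = 0.00206), in 3 of 3 samples each. With SR-3420 alone, Pdhb was at -0.63 (SE 0.25), Dlat at -0.75 (SE 0.33) and Pdhx at -0.46 (SE 0.15), with adjusted p of 0.159, 0.197 and 0.0898 by edgeR. They were lower without overlap, which groups of 2 samples can readily show by chance. The Pdhb value ranged from -0.97 without SR-3420 replicate 3 to -0.36 without SR-3420 replicate 1. The summed brown adipocyte markers were lower in the same samples, and their part in these falls was not tested.

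**Figure D5:**
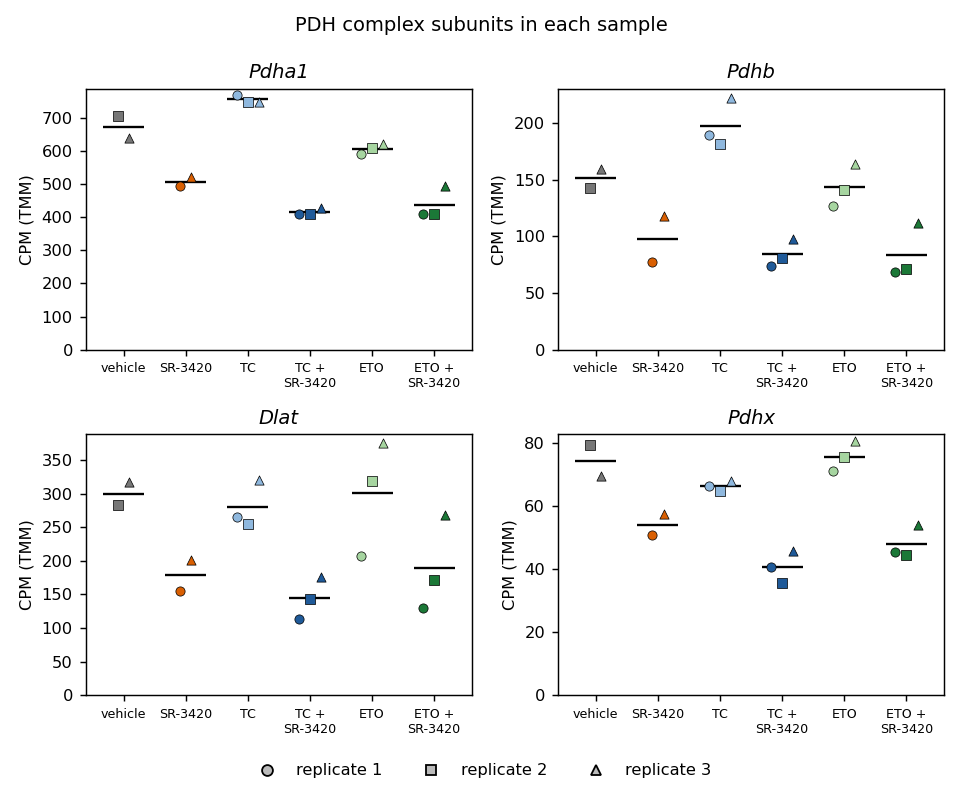
Level in CPM (TMM-normalized; TC, triacsin C; ETO, etomoxir) of Pdha1, Pdhb, Dlat and Pdhx in each of the 16 samples, by group, with circles, squares and triangles for replicates 1, 2 and 3 and a line at each group mean. For Pdha1 the 8 samples with SR-3420 lie between 409 and 521 CPM and the others between 589.6 and 769 CPM.

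Of 7 partner genes of the complex, 6 were tested, and Dld and Nfu1 were called in no arm. After triacsin C, 4 of the 6 fell (19.7% of all genes) and 0 rose (17.3%) by edgeR, with a median log2 fold change of -0.93 beside 0.02 for all genes. After etomoxir 4 fell (12.8% of all genes) and 0 rose (12.5%), with a median of -0.75 beside 0.01. Lias, which makes the lipoyl cofactor of the E2 subunit, fell by 1.17 on the log2 scale after triacsin C (adjusted p = 0.000623). Lipt1, a lipoyl transferase, fell by 1.04 (adjusted p = 0.000437) and Lipt2, which starts lipoylation, by 0.98 (adjusted p = 0.00672) in the same comparison. Pdpr, the regulatory subunit of the phosphatase, fell by 0.59 with SR-3420 alone (adjusted p = 0.0345), where it was the 1 partner called and 2.79% of all genes fell. It fell by 0.87 after triacsin C (adjusted p = 0.000167) and by 0.84 after etomoxir (adjusted p = 0.000415). Pdpr also fell by 0.59 with triacsin C alone (adjusted p = 0.0122), in which the phosphatase gene Pdp2 rose.

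Genes of pyruvate transport and use moved in both directions. Of the 11 tested, 2 rose and 1 fell with SR-3420 alone (median log2 fold change -0.14 beside 0.00 for all genes), 1 rose and 6 fell after triacsin C (-0.74 beside 0.02), and 3 rose and 5 fell after etomoxir (-0.65 beside 0.01). Among all genes, 4.75% rose and 2.79% fell with SR-3420 alone, 17.3% and 19.7% after triacsin C, and 12.5% and 12.8% after etomoxir. Slc16a3, an exporter of lactate, rose by 2.25 with SR-3420 alone (adjusted p = 0.000633), by 1.48 after triacsin C (adjusted p = 0.000306) and by 2.81 after etomoxir (adjusted p = 7.66e-06) on the log2 scale. Ldha, which turns pyruvate into lactate, rose by 0.91 with SR-3420 alone (adjusted p = 0.0341) and by 0.86 after etomoxir (adjusted p = 0.00556). Mpc1, a subunit of the carrier that takes pyruvate into mitochondria, fell by 1.33 after triacsin C (adjusted p = 1.05e-05). Its response after triacsin C differed from that without inhibitor by -0.93 (SE 0.20, adjusted p = 0.0302). Pcx, which makes oxaloacetate from pyruvate, fell by 1.45 after triacsin C (adjusted p = 0.00418) and by 1.05 after etomoxir (adjusted p = 0.0333).

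The related dehydrogenase complexes and their own kinase and phosphatase, 8 genes all tested, had 1 that fell and 0 that rose with SR-3420 alone, Dhtkd1, a relative of the E1 subunit of the oxoglutarate complex (log2 fold change -0.96, adjusted p = 0.0179). After triacsin C 7 of the 8 fell (median -0.85 beside 0.02 for all genes) and after etomoxir 7 fell (-0.81 beside 0.01), with 0 higher by edgeR. Among all genes, 2.79% fell with SR-3420 alone, 19.7% after triacsin C and 12.8% after etomoxir. Bckdk, the kinase of the branched-chain complex, fell by 0.89 on the log2 scale after triacsin C (adjusted p = 0.00572), and Bckdha, the subunit it phosphorylates, by 1.71 (adjusted p = 0.00299). Ppm1k, the phosphatase of that complex, fell by 1.36 after etomoxir (adjusted p = 0.01). Of the 14 TCA cycle enzymes, 12 fell after triacsin C (median -0.93), where 19.7% of all genes did. After etomoxir 8 fell (median -0.62), where 12.8% of all genes did, with 0 higher by edgeR in either comparison. Sdha, a subunit of succinate dehydrogenase, fell by 1.33 after triacsin C (adjusted p = 9.8e-06), and Idh3b, a subunit of isocitrate dehydrogenase, by 1.20 (adjusted p = 0.000108). With SR-3420 alone, at a median of -0.29, edgeR called 0 of the 14 in either direction (4.75% of all genes higher, 2.79% lower). The unadjusted p was under 0.05 for 4 (21.8% of all genes), and DESeq2 called 2 (12.5%).

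Factors known to act on Pdk genes were read as transcripts. Of the 9 tested, 1 fell with SR-3420 alone, Pparg (log2 fold change -0.82, adjusted p = 0.0327), where 2.79% of all genes did. After triacsin C 1 fell, Ppara (-1.03, adjusted p = 0.00324), where 19.7% of all genes did. After etomoxir 1 fell, Pparg (-0.79, adjusted p = 0.0046), where 12.8% of all genes did. With triacsin C alone, in which Pdk4 rose, 4 of the 9 fell, where 6.94% of all genes did. These were Pparg by 1.48, the coactivator Ppargc1a by 1.04, Ppara by 0.83 and Foxo1 by 0.66 on the log2 scale. In the mean response over the 3 arms Hif1a rose by 0.60 (adjusted p = 0.0403) and Pparg fell by 0.53 (adjusted p = 0.00121).

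Of 12 known PPAR targets, 5 rose and 0 fell with SR-3420 alone (median log2 fold change 0.77 beside 0.00 for all genes), among them Plin2, a lipid droplet coat protein (2.10, adjusted p = 0.000421), and Angptl4, a secreted inhibitor of lipoprotein lipase (2.10, adjusted p = 3.82e-06). After triacsin C 2 rose and 5 fell (median -0.25), with Ehhadh, a peroxisomal oxidation enzyme, at -1.83 (adjusted p = 3.54e-05). After etomoxir 2 rose and 2 fell (median 0.20). Among all genes, 4.75% rose and 2.79% fell with SR-3420 alone, 17.3% and 19.7% after triacsin C, and 12.5% and 12.8% after etomoxir. With triacsin C alone 4 rose and 0 fell (median 0.53), led by Angptl4 at 1.498 (adjusted p = 9.63e-06), where 4.77% of all genes rose and 6.94% fell. Angptl4 also had a lower response to SR-3420 after triacsin C than without inhibitor, by -1.23 (SE 0.17, adjusted p = 0.00362). The Pdk4 difference had the same sign, but its call was lost in all 10 fits without 1 library. Of 10 known HIF-1 targets, 8 rose and 0 fell with SR-3420 alone (median 1.49), 7 rose and 1 fell after triacsin C (0.90), and 9 rose and 0 fell after etomoxir (1.75). Slc2a1, the glucose transporter GLUT1, rose by 2.26 with SR-3420 alone (adjusted p = 0.000815), by 1.87 after triacsin C (adjusted p = 9.42e-05) and by 2.13 after etomoxir (adjusted p = 8.18e-05). Pdk1, itself known as a HIF-1 target, was at -0.15, -0.70 and -0.35 in the same comparisons. With triacsin C alone 3 of the 10 rose, led by Ankrd37 at 1.76 (adjusted p = 6e-05). With etomoxir alone edgeR called 0 of the 70 genes tested in these pathway and target lists, where it called only 0.0235% of all genes. Of the 70, 5 had an unadjusted p under 0.05 (2.21% of all genes), and DESeq2 called 1 (0.133%).

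Across the 16 samples the members fell into opposite patterns, given as Pearson correlations of log2 CPM that describe samples sharing 6 treatments and carry no test. The subunits followed each other, with 0.946 between Pdha1 and Pdhb and 0.881 between Dlat and Pdhx. Pdk2 ran with Pdha1 (0.853) and against Pdk4 (-0.743), and Pdk4 ran against Pdhx (-0.841). Genes with a mean of 50 or more normalized counts, 10685 in all, were ranked, and the patterns most like that of Pdk4 were those of Spry4 (0.966), an inhibitor of growth factor signalling, Angptl4 (0.962) and Hilpda (0.96), an inhibitor of the lipase ATGL. The patterns most like Pdk2 were those of Reep6 (0.989), Sbk1 (0.986) and Tmem143 (0.986), and most like Pdp2 those of Hexim1 (0.97), Sephs2 (0.961) and Tlcd2 (0.96). For Pdk1 they were Steap4 (0.941), Dnaja3 (0.926) and Abhd5 (0.913), the last being the protein to which SR-3420 binds. For Pdk3 they were Cpsf7 (0.979), Dync1li2 (0.979) and Cdk2 (0.978), and for Pdp1 Gnai3 (0.945), Mtfr1 (0.944) and Pla2g4a (0.944). With the replicate number removed from the values, the first 3 genes kept 0 of these names for Pdk1, 1 each for Pdk2 and Pdk3, and 2 each for Pdk4, Pdp1 and Pdp2.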

How the data were processed

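RNA-seq of 16 samples in 6 groups was analysed from the counts of 20295 genes that the authors deposited without normalization. The authors aligned reads with STAR 2.4.2a to mm9, kept 1 read per position and length with HOMER, which limits highly expressed genes, and counted with iRNA-seq. From these, edgeR 4.0.16 in R 4.3.3 gave TMM-normalized CPM, log2 fold changes with their standard errors, and p-values (filterByExpr, quasi-likelihood F-test, 1 mean per group over all 16 samples, Benjamini-Hochberg adjustment over 12786 genes, calls under 0.05). Standard errors came from the fold change and the test statistic. Correlations used log2 CPM with a prior count of 2. Total counts per sample ranged from 9452861 to 25670624.

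The named genes are all 10 members in each comparison that called them, at most 4 called genes per other list and comparison with the largest change, and the 3 genes most correlated with each kinase and phosphatase. The lists were partners of the complex, pyruvate transport and use, related complexes, TCA cycle enzymes, factors known to act on Pdk genes, PPAR and HIF-1 targets, and markers of 5 cell types. Members and lists were chosen with earlier results of these data known.

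Alternatives were DESeq2 1.42.0 size factors and test, other filters on low counts, a block for the replicate number, a fit restricted to the groups compared, fits without each sample in turn, and levels without division by length. Leaving out the 6 libraries numbered 3 was chosen after seeing the data. The methods were tested on simulated data.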

Additional observations from a re-analysis of the deposited data

Results flagged for a closer look

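The response to SR-3420 differed between the arms with and without triacsin C for 2 members, by the test of the difference itself. For Pdk4 the log2 fold change was 2.25 (SE 0.21) without inhibitor and 1.19 (SE 0.17) after triacsin C, a difference of -1.07 (SE 0.26, adjusted p = 0.0486 by edgeR), with an adjusted p from 0.0541 to 0.248 when each library of the 4 groups was left out. For Pdp2 it was -0.34 (SE 0.16, from -0.60 to -0.12 without 1 library) without inhibitor and -1.52 (SE 0.14) after triacsin C, a difference of -1.18 (SE 0.21, adjusted p = 0.0122 by edgeR), with an adjusted p from 0.00893 to 0.0893 in the same fits. Both genes were higher in triacsin C alone than in vehicle, in 3 of 3 samples.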

How the results depend on the processing

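The 44 results on single members were the 10 members in each response to SR-3420 and, in the other comparisons, only the members called there, so gains of uncalled members there are not among them. They had 638 values under the alternatives, of which 564 kept their direction and side of the threshold, 54 lost the call, 15 gained one and 5 changed sign, and the cause was not tested. Pdk4, Pdk2, Pdp2, Pdha1 and Pdhx kept their calls in the responses to SR-3420 after either inhibitor in every fit without 1 library. Without inhibitor the Pdk4 value stayed between 2.07 and 2.42 in such fits, each of which left 1 sample in a group. Of the 10 members, SR-3420 alone had 3 called with DESeq2's test and 5 with the replicate block, and 1 in every fit without 1 library. Triacsin C alone had 1 to 2 in those fits and 3 with the block. SR-3420 after triacsin C had 7 to 8 without 1 library, after etomoxir 5 to 8, and the mean response 7 to 9. SR-3420 after etomoxir had 4 in a fit of only the compared groups and 9 with the block. With the block SR-3420 after triacsin C, the mean response and the test of any difference had 10 each. Triacsin C added to SR-3420 had 2 with DESeq2's test, 4 with the block, 0 in a fit of only the compared groups, 0 without the 6 libraries numbered 3 (chosen after seeing the data), and 0 to 1 without 1 library. Etomoxir added to SR-3420 had 1 with DESeq2's test and 4 with the block. The difference of responses after triacsin C had 1 with DESeq2's size factors, 1 with no filter, 4 with the block, 0 without the libraries numbered 3, and 0 to 1 without 1 library. The signs that changed were those of members not called with SR-3420 alone: Pdk3, at 0.092 with the block and from -0.77 to 0.49 without 1 library, Pdk1, from -0.36 to 0.035, and Pdp1, from -0.020 to 0.41. Without division by length the Pdk4 share was 27.0% in vehicle and 73.1% in etomoxir with SR-3420, and the kinase to phosphatase ratio was 4.52 in vehicle, 9.58 in SR-3420, 3.77 in triacsin C, 9.06 in triacsin C with SR-3420 and 5.33 in etomoxir, as the genes differ in counted length. The block also raised the share of all genes called, to 19.1% with SR-3420 alone, 56.2% after triacsin C, 45.2% after etomoxir, 24% with triacsin C alone, 23.5% and 14.4% with triacsin C and etomoxir added to SR-3420, 13.1% in the difference of responses, 61.5% in the mean response and 76.1% in the test of any difference. The mean response and the test of any difference have no fit of only the compared groups. Where leaving out a library left 1 sample in a group, that sample is assumed to vary like the other groups. Deviations from the group means had a correlation over 0.1 in 27 of 35 pairs of samples with the same replicate number, with a mean of 0.41 against -0.203 over 71 other pairs, and 10 of 16 samples correlated best with their own number. As not every pair passed, the main fit did not pair the samples by number, and the labels do not say what a number marks. The paper states that its RNA-seq came from independent experiments. If the numbers mark these, the main fit ignores a pairing and can miss calls that the block makes. The block gained calls for Pdk3 after triacsin C (0.49, adjusted p = 0.0483) and after etomoxir (0.66, adjusted p = 0.0135), and after etomoxir also for Dlat (-0.68, adjusted p = 0.00114) and Pdk1 (-0.37, adjusted p = 0.0268). With SR-3420 alone it gained Pdha1 (-0.40, adjusted p = 0.0314), Pdhb (-0.60, adjusted p = 0.00711), Dlat (-0.60, adjusted p = 0.027) and Pdhx (-0.46, adjusted p = 0.0283). In the difference of responses after triacsin C it gained Pdk2 (-1.12, adjusted p = 0.0246) and Pdhb (-0.63, adjusted p = 0.0303). With triacsin C alone it gained Pdhb (0.48, adjusted p = 0.011), and in the mean response Pdk3 (0.41, adjusted p = 0.0102). Triacsin C added to SR-3420 gained Pdk1 (adjusted p = 0.0105), Pdk3 (0.0292) and Pdhx (0.0312), and etomoxir added to it Pdk1 (0.0461), Pdk2 (0.0297), Pdk3 (0.0408) and Pdp2 (0.0198). DESeq2's size factors moved the median log2 fold change of all genes by at most 0.0376. Counting error is largest for Pdk3 and Pdp1, the members with the fewest counts.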
